A study of Mus musculus with 16 samples.

Results

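The 45 genes described here encode splicing regulators: 12 SR proteins, 4 SR-related proteins, 14 heterogeneous nuclear ribonucleoproteins (hnRNPs), 10 tissue-biased regulators and 5 factors that recognise splice sites. They were chosen by name, and their rows were found by Ensembl gene identifier. All 45 were present among the 53333 rows of the gene table, 2 of them (Hnrnpm and Hnrnpa3) in rows joined with an overlapping gene. RNA was measured by sequencing ribodepleted total RNA from mHiPPoE-2, a transformed neuron line derived from mouse hippocampus. Each of 8 groups had 2 libraries: 1 METTL3 knockout line (METTL3 KO, 1 clone), 2 rescue clones (RBM45 KO cells that carry F-HA-tagged RBM45_mut[delta]gRNA), 2 RBM45 knockout clones (RBM45 KO), 2 Cas9 control clones that received no guide RNA, and the wild-type line (WT, for which the labels name no editing or cloning). The clones are called here by their column names: rescue m2 and m3, RBM45 KO ko1-4 and ko2-3, control e1 and e4. RBM45 and METTL3 are both tied to m6A, a methyl mark on adenosine in mRNA: METTL3 is the catalytic subunit of its writer, and RBM45 is an RNA-binding protein linked to the mark. What the libraries share is the cell line, and no treatment was given. No label says that the 2 libraries of a group came from separate cultures, and p-values reflect the spread between libraries, which may be technical.

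SR proteins bind exonic enhancers through their RNA-recognition motifs and recruit U1 and U2 snRNPs through domains rich in arginine and serine. Many hnRNPs, PTBP1 among them, act against them as silencers, and families such as RBFOX, MBNL, CELF and QKI switch exons between tissues. Several of these genes control their own output: when the protein is plentiful, a poison exon with an early stop codon is spliced in, and the transcript is removed by nonsense-mediated decay.

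Each library held 7193908 to 18751324 counts in the gene table, of which the 12 most abundant rows took 53.3% to 70.6%. The members held 26151 to 91467 counts per library, 1.01% to 1.28% of the counts outside those 12 rows. Rbm45 stood at 21.1 to 25.9 CPM (counts scaled to the library total, with TMM factors) in rescue libraries, at 5.70 to 10.8 CPM in RBM45 KO libraries, and at 12.8 to 16.7 CPM in controls. Mettl3 stood at 3.35 and 3.71 CPM in METTL3 KO libraries, against 8.79 and 11.7 CPM in WT. The label calls the cells neurons. Of 9 neuron markers (summed 98.1 to 180.7 CPM) 4 had a median of at least 1 CPM. These were Map2 (82.1 CPM), Syn1 (41.3 CPM), Gap43 (1.085 CPM) and Tubb3 (1.019 CPM). Rbfox3, Snap25, Stmn2 and Nefl had a median of 0, and Syp of 0.217 CPM. All 5 fibroblast and mesenchymal markers passed 1 CPM (summed 1430 to 4688 CPM). Their medians were 1327 CPM (Fn1), 1006 CPM (Vim), 130.7 CPM (Col1a1), 1.787 CPM (Col1a2) and 1.516 CPM (Col3a1). The marker lists of astrocytes (1 of 5), oligodendrocytes (1 of 5) and microglia (2 of 5) had summed levels of 0.385 to 25.1, 42.2 to 130.3 and 36.2 to 59.6 CPM. The intron share of bin counts differed between groups. This share is intron-bin counts over intron-bin plus exon-bin counts, outside the 12 most abundant rows. It averaged 23.8% in METTL3 KO (23.3% and 24.3%), 22.3% in rescue (20.4% to 25.7%) and 17.7% in RBM45 KO (16.9% to 19.2%). In controls it averaged 19.7% (16.4% to 22.6%), and in WT 17.4% (16.5% and 18.2%).

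The exons on which self-regulation is best known in this family are printed here because their share was followed in every group. From the GENCODE M21 annotation (GRCm38), 64 exon bins of 24 members lie in an exon of an annotated decay transcript and in no protein-coding transcript; these are called poison bins. The letters below, read from GENCODE M21 transcripts, are the coding part of 4 such exons up to the first in-frame stop of the decay transcript, 5′ to 3′, with the stop codon in capitals. The Srsf3 stretch is chr17:29039454-29039487 (plus strand), in an exon of 456 bases; the Srsf7 stretch is chr17:80205054-80205081 (minus strand), in one of 460 bases; the Tra2a stretch is chr6:49252965-49253108 (minus strand), in one of 306 bases; and the Tra2b stretch is chr16:22259181-22259261 (minus strand), in one of 276 bases.
Srsf3: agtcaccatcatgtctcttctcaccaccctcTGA
Srsf7: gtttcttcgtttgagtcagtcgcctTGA
Tra2a: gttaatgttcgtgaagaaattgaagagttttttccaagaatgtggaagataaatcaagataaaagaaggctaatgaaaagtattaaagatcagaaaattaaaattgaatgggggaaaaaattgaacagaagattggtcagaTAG
Tra2b: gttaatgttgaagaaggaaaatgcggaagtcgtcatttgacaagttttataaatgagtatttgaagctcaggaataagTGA
The stop follows 31 letters in Srsf3, 25 in Srsf7, 141 in Tra2a and 78 in Tra2b, and the stretches of the paralogs Tra2a and Tra2b share their first 9 letters.

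All 45 members passed the filter on low counts. Levels per kilobase of exon spanned a wide range. A fragment could count in several exon bins of a gene, so this scale can run higher for genes cut into many bins. In the first WT library Hnrnpk had 488.7 CPM by exon bins and 173.3 CPM by gene body, and Hnrnpa0 61.4 and 64.8 CPM. The part of this in the order of genes was not tested. Hnrnpk, a KH-domain RNA-binding protein, had the highest mean, 77.3 exon CPM per kb over the 16 libraries (64.6 to 90.6), and Ptbp1, which represses neuronal exons outside neurons, averaged 60.5 (40.1 to 80.6). The ranges of these 2 genes overlapped, and that of Ptbp1 overlapped those of Srsf2 (49.2 on average, 36.9 to 58.4) and Hnrnpl (46.4, 32.8 to 55.4). Ptbp2, the neuronal paralog of Ptbp1, averaged 4.46 exon CPM per kb (3.11 to 7.19), below every library of Ptbp1. At the low end stood Rsrc1, an SR-related protein, at 1.95 (1.56 to 2.35) and Elavl2, a neuronal ELAV protein, at 0.111 (0 to 0.209). Among tissue-biased regulators Rbfox2 was the highest on this scale, at 21.1 (17.6 to 26.0).

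**Figure D1:**
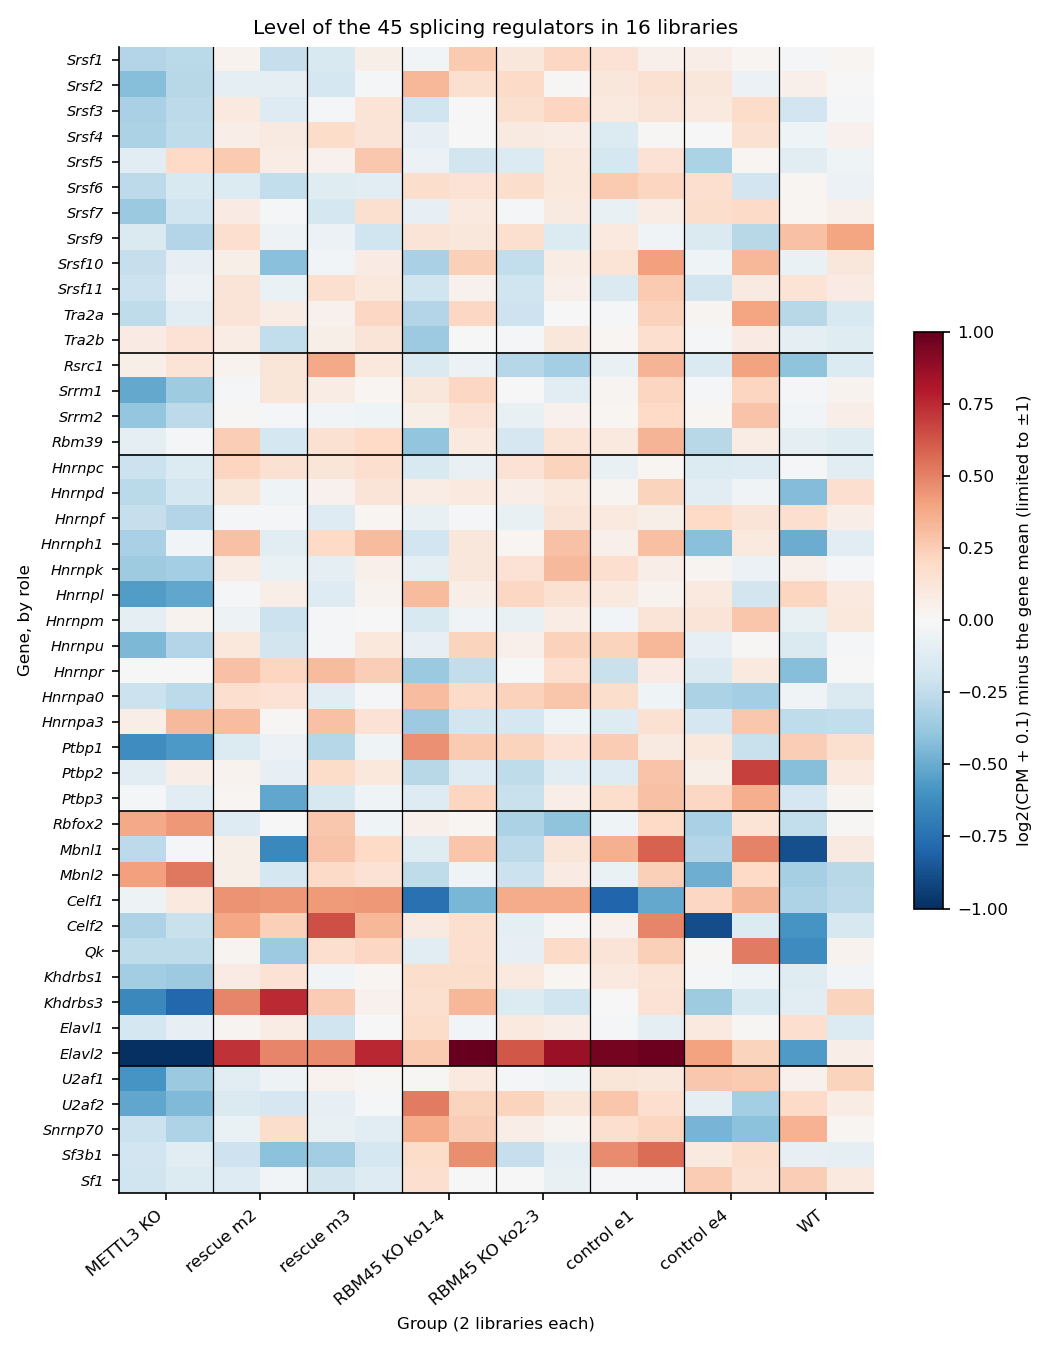
Level of each of the 45 members (rows, by role) in each library (columns, 2 per group): log2(CPM + 0.1) minus the gene's mean over the 16 libraries, limited to ±1. Both METTL3 KO columns are blue for most SR and hnRNP genes and darkest for Elavl2, while Celf1 changes between clones of the same genotype.

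The comparison of RBM45 KO with control clones asks what loss of RBM45 does to the splicing regulators. It was fitted on 6 clones, with the 2 libraries of a clone added together, because the clone is the unit that was edited. None of the 45 members passed the test (edgeR quasi-likelihood, Benjamini-Hochberg adjusted p under 0.05), where 0% of all 16867 genes tested were called. At an unadjusted p under 0.05 there were 2 members and 983 genes, and DESeq2 called 0 members and 4 genes. The median log2 fold change was -0.07 over the members and -0.01 over all genes. In bulk RNA, fewer cells of a type and less RNA per cell cannot be told apart.

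The 3 members with the smallest p did not pass. Ptbp2 stood at 34.3 and 38.0 CPM in ko1-4 and 34.9 and 38.8 CPM in ko2-3, against 38.1 and 50.9 CPM in e1 and 43.5 and 67.1 CPM in e4. RBM45 KO libraries lay at the low end, and 3 of the 4 control libraries were above all of them. The log2 fold change was -0.48 (95% interval -0.89 to -0.07, adjusted p = 0.754, edgeR). Rsrc1 stood at 53.5 and 56.9 CPM in ko1-4 and 48.5 and 46.7 CPM in ko2-3, against 56.3 and 74.8 CPM in e1 and 53.7 and 78.2 CPM in e4 (log2 fold change -0.38, interval -0.74 to -0.03, adjusted p = 0.754, edgeR). Its groups overlapped. Hnrnpa0, an intronless hnRNP gene, stood at 82.2 and 75.8 CPM in ko1-4 and 77.8 and 80.6 CPM in ko2-3, against 74.9 and 64.3 CPM in e1 and 53.2 and 52.3 CPM in e4. All RBM45 KO libraries were above all controls, but e1 and e4 also differed from each other (log2 fold change over all clones 0.38, interval -0.04 to 0.80, adjusted p = 0.754, edgeR).

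Poison bins were followed as a share of the gene's exon-bin counts, with a change tested relative to the rest of the gene (diffSpliceDGE of edgeR). A poison bin that lies within an intron of the coding transcripts can also collect reads of unspliced RNA. In RBM45 KO over controls 0 of 22 poison bins tested passed, 2 had an unadjusted p under 0.05, and 6 had a positive relative change. Of 1163 member bins 0 passed, where 0.00908% of 132209 bins were called. Those 2 bins belong to the poison exon of Srsf3, whose protein promotes inclusion of many exons. Its middle bin (chr17:29039518-29039693) held 0.913% and 1.23% of Srsf3 exon counts in ko1-4 and 0.766% and 1.04% in ko2-3, against 1.24% and 2.14% in e1 and 1.47% and 1.82% in e4. Each RBM45 KO library was below each control library, by a small margin at the closest pair. The relative log2 change was -0.51 ± 0.15 (SE), with an adjusted p of 1 over all bins (diffSpliceDGE). The first and last bins of this exon changed less (-0.41 ± 0.16 and -0.47 ± 0.14 SE). In the first bin RBM45 KO (0.600% to 0.913%) overlapped controls (0.775% to 1.62%). In rescue libraries the middle bin held 1.61%, 0.693%, 1.77% and 1.66%, and in METTL3 KO 1.94% and 2.23%, against 2.44% and 1.37% in WT. The intron share of Srsf3 bin counts averaged 10.16% in RBM45 KO, 12.65% in controls and 12.47% in rescue. Its part in the poison-bin shares was not tested.

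The poison exons of the other 3 genes did not separate RBM45 KO from controls. The downstream bin of the Srsf7 exon (chr17:80204622-80204945) held 2.28% to 4.07% in RBM45 KO libraries and 2.44% to 5.08% in controls. Its upstream bin (chr17:80204946-80205081), which holds the stop, had 1.90% to 2.61% in RBM45 KO and 2.31% to 4.26% in controls. The relative log2 change of the upstream bin was -0.31 ± 0.17 (SE) and did not pass. Tra2a, a splicing activator of the transformer-2 family, had 1.19% to 2.43% in RBM45 KO and 1.82% to 2.80% in controls, on 6 to 23 counts per library. Tra2b, its paralog, had 1.63% to 2.34% in RBM45 KO and 1.08% to 2.82% in controls. For the downstream Srsf7 bin and the Tra2a and Tra2b bins the relative log2 changes were -0.10 ± 0.16, -0.16 ± 0.18 and 0.13 ± 0.20 (SE). The member bin with the smallest p was the first exon bin of Rsrc1 (chr3:66981390-66981542), whose relative log2 change of -1.45 ± 0.29 (SE) did not pass (adjusted p = 0.199, diffSpliceDGE).

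**Figure D2:**
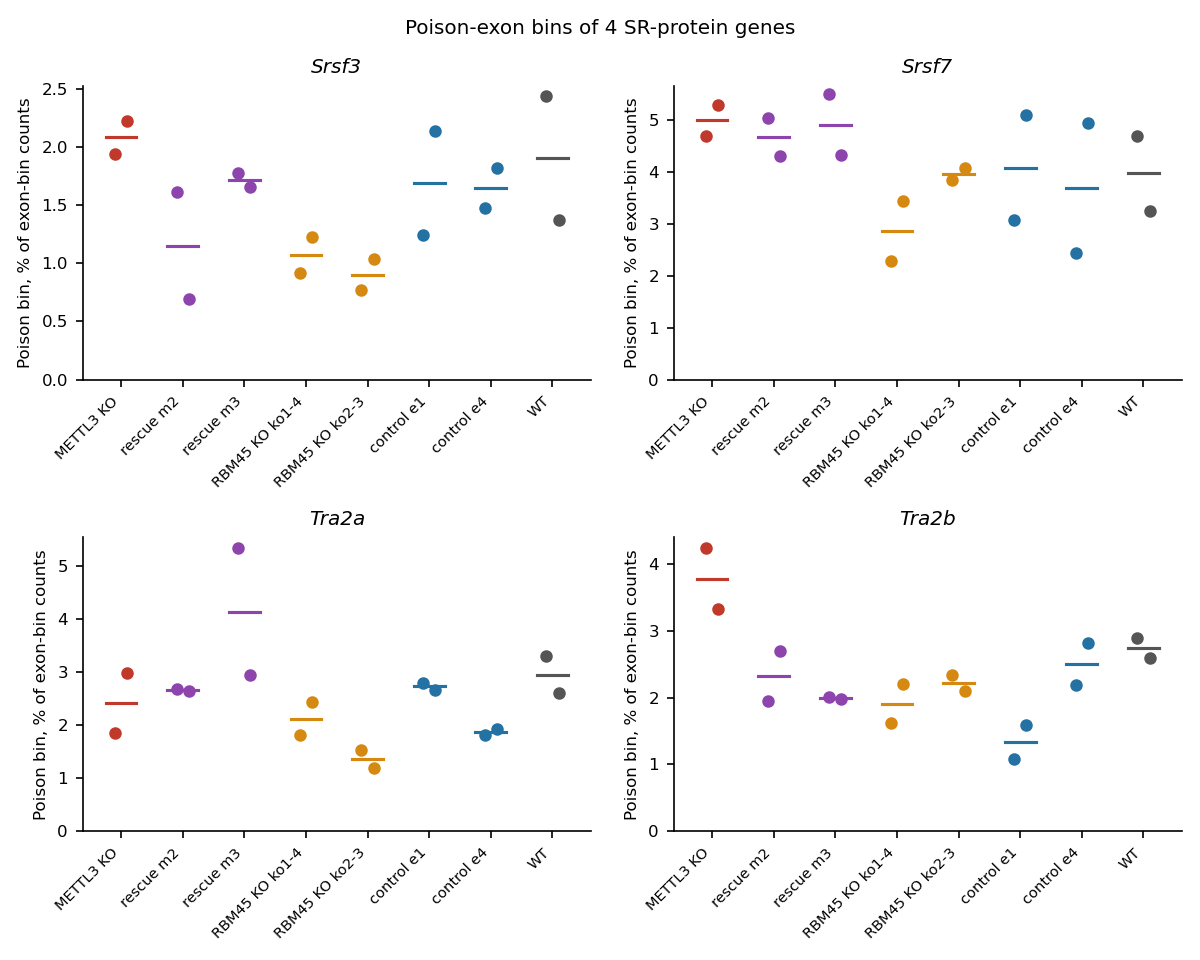
Poison-exon bins of 4 SR-protein genes as a percent of the gene's exon-bin counts, 2 libraries (points) and their mean (line) per group; for Srsf3 the middle bin and for Srsf7 the downstream bin are drawn. The Srsf3 points of RBM45 KO lie below those of the controls, and the Tra2b points of METTL3 KO (4.24% and 3.32%) lie above all others.

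In rescue over RBM45 KO clones, the comparison that asks what returning RBM45 does, 0 members passed and 0% of 16867 genes were called (2 members and 1239 genes at an unadjusted p under 0.05; DESeq2 called 0 members and 38 genes). The medians were -0.04 over the members and -0.01 over all genes. Ptbp1 had 127.0 and 134.3 CPM in m2 and 114.7 and 136.0 CPM in m3, against 191.7 and 167.7 CPM in ko1-4 and 162.8 and 154.2 CPM in ko2-3. All 4 rescue libraries lay below all 4 RBM45 KO libraries, with a log2 fold change of -0.41 (interval -0.78 to -0.05, adjusted p = 0.662, edgeR). Controls stood at 119.9 to 166.7 CPM and overlapped both. Hnrnpa3 had 20.8 to 25.7 CPM in rescue and 16.03 to 20.02 CPM in RBM45 KO libraries (log2 fold change 0.37, interval 0.03 to 0.71). Rsrc1 had 60.6 to 77.1 CPM in rescue and 46.7 to 56.9 CPM in RBM45 KO libraries (log2 fold change 0.35, interval -0.01 to 0.70). Their adjusted p was 0.662 each (edgeR), the same value as for Ptbp1. By exon bins the groups of Rsrc1 overlapped, at 24.1 to 28.1 CPM in rescue and 18.75 to 25.3 CPM in RBM45 KO libraries. Of the 1163 member bins 0 passed, where 0.0113% of bins were called. Over the introns of members the median relative log2 change was 0.17, and its part in the poison bins was not tested. Of 22 poison bins 0 passed, 2 had an unadjusted p under 0.05 and 16 had a positive relative change (median 0.26). The smallest p belonged to the bin of Srsf6 at chr2:162932980-162933082 (relative log2 change 0.99 ± 0.20 SE) and the next to a bin of Srrm2 at chr17:23821921-23822015 (0.81 ± 0.22 SE), each with an adjusted p of 1 (diffSpliceDGE). This comparison and that of RBM45 KO with controls share the RBM45 KO libraries.

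In rescue over control clones 0 members passed and 0% of genes were called (2 members and 2620 genes at an unadjusted p under 0.05; DESeq2 called 0 members and 456 genes), and 0 member bins passed where 0.0129% of bins were called. Of 22 poison bins 0 passed, 0 had an unadjusted p under 0.05 and 17 had a positive relative change (median 0.12). The smallest p belonged to Ptbp3, a widely expressed paralog of Ptbp1, with a log2 fold change of -0.42 ± 0.13 (SE) and an adjusted p of 0.276 (edgeR); its rescue libraries had 47.6 to 68.9 CPM and its control libraries 76.8 to 87.6 CPM. Sf3b1, the U2 snRNP subunit that holds the branch point, came next. It stood at 101.1 and 88.0 CPM in m2 and 91.7 and 103.5 CPM in m3, against 161.6 and 171.8 CPM in e1 and 124.8 and 132.1 CPM in e4. No rescue library reached the lowest control, but the controls differed between clones (log2 fold change -0.63 ± 0.21 SE, adjusted p = 0.285, edgeR). The third was Srsf10 (-0.30 ± 0.13 SE, adjusted p = 0.339, edgeR), an SR protein that represses splicing when dephosphorylated.

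Comparing each clone of one genotype with each clone of the other gave 4 pairs, fitted on the 16 libraries. A gene was counted when it passed in all 4 pairs in the same direction. In RBM45 KO over controls 0 members met this, where 0.105% of 16223 genes did, and in rescue over RBM45 KO 0 members met it, where 0.24% of genes did. In rescue over controls, a count added after the data were seen, 1 member met it, where 7.51% of genes did. That member was Sf3b1, with log2 fold changes of -0.82 and -0.44 in m2 over e1 and over e4, and -0.77 and -0.40 in m3 over e1 and over e4. The largest adjusted p of these 4 was 0.0289 (edgeR). This call was lost without either e4 library, without the second m2 library, and without the first m3 library. The pairs share libraries, so they are not independent.

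METTL3 KO was set against WT and against the 4 control libraries. The 2 comparisons share the METTL3 KO libraries, and the METTL3 KO line is 1 clone, so clone and knockout cannot be told apart. Against WT 15 of 45 members were called, 2 higher and 13 lower, where 22.9% of 16223 genes were called, 11.2% higher and 11.8% lower. Against controls 22 members were called, 2 higher and 20 lower, where 30.6% of genes were called, 16.1% higher and 14.5% lower. The median log2 fold change of the members was -0.18 against WT and -0.32 against controls, where that of all genes was 0.01 in both. The 12 most abundant rows took on average 55.2% of counts in METTL3 KO, against 66.5% in WT and 64.9% in controls, and the part of this difference in the counts of members was not tested. Both METTL3 KO libraries lay below all 14 other libraries for 17 members (37.8%), where 8.87% of genes did, and above all 14 for 2 members (4.44%), where 9.94% of genes did. Against WT the count of 15 fell to 8 without the first METTL3 KO library, 6 without the second and 8 without the first WT library. Against controls the count of 22 fell to 6 without the first and 10 without the second METTL3 KO library.

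**Figure D3:**
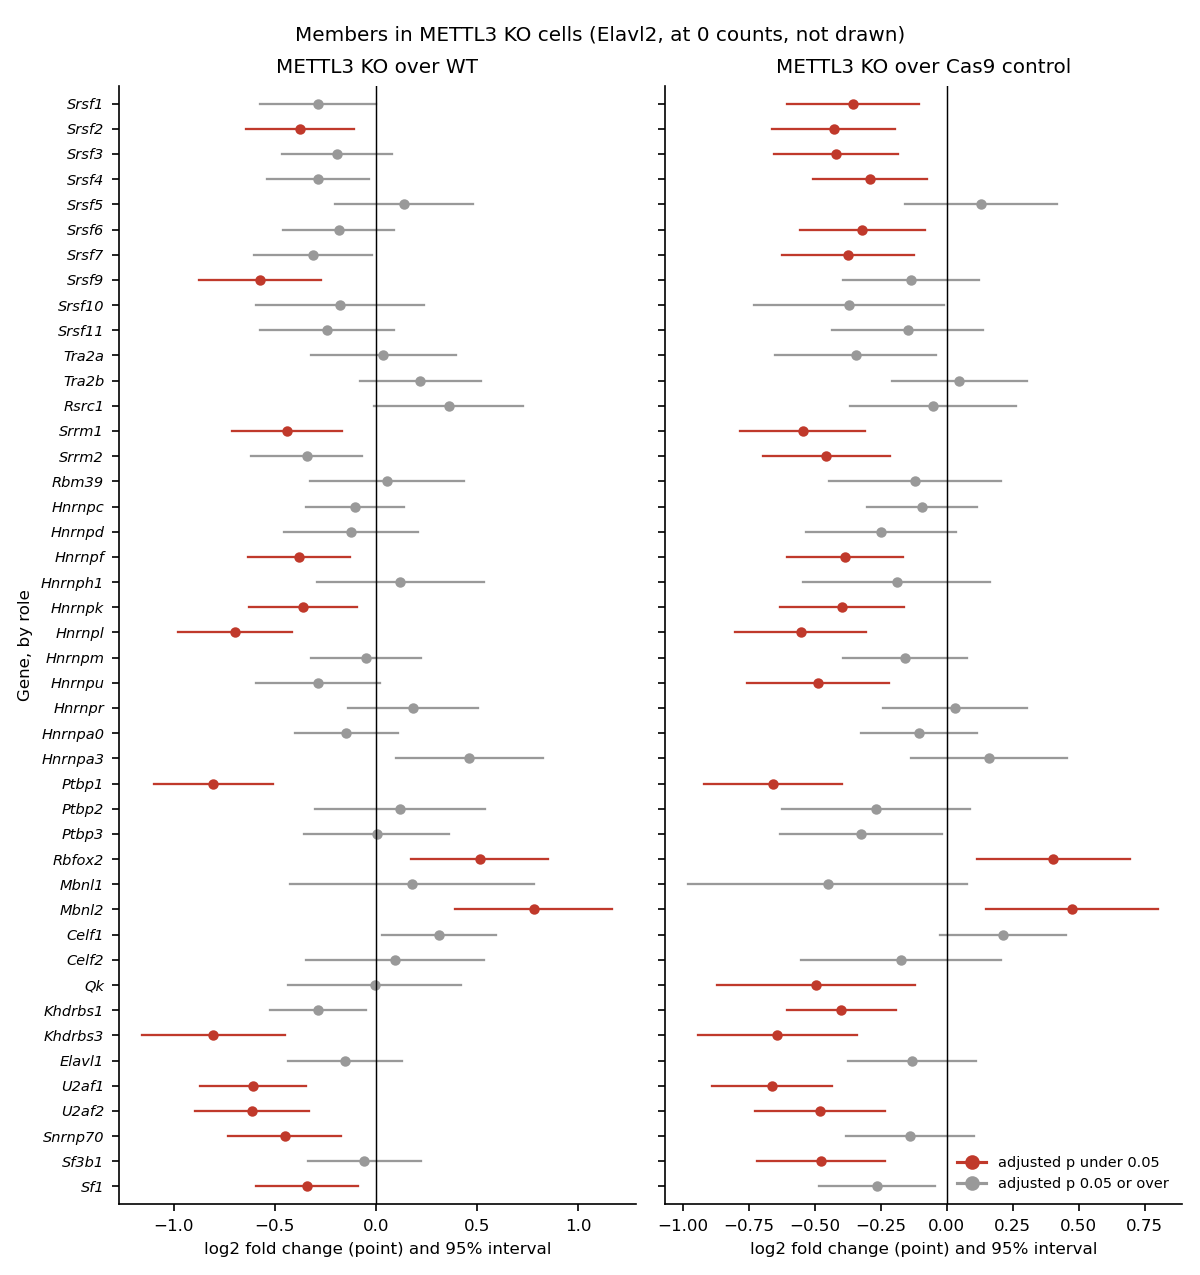
Log2 fold change of 44 members in METTL3 KO over WT (left) and over Cas9 controls (right), with 95% intervals; red marks an adjusted p under 0.05. Most red points lie left of 0, and Rbfox2 and Mbnl2 are the 2 that lie right of it in both panels; Elavl2 is at 0 counts in METTL3 KO and is not drawn.

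Among the SR proteins 2 of 12 fell against WT, where 11.8% of all genes did, and 6 of 12 against controls, where 14.5% did. The number that rose was 0 in both, where 11.2% and 16.1% of all genes rose. Srsf9, a small SR protein, stood at 18 and 16.2 CPM in METTL3 KO, against 24.5 and 26.2 CPM in WT. The METTL3 KO libraries were below both WT libraries (log2 fold change -0.57 ± 0.14 SE, adjusted p = 0.00836, edgeR). Controls had 16.4 to 21.4 CPM, so Srsf9 did not pass against them, and it was itself lower in controls than in WT. Srsf2, which binds exonic enhancers and is itself an autoregulated gene, had 67.6 and 75.0 CPM in METTL3 KO, against 94.1 and 91.2 CPM in WT and 87.3 to 100.9 CPM in controls. It fell in both comparisons (log2 fold changes -0.38 ± 0.13 and -0.43 ± 0.11 SE, adjusted p = 0.0417 and 0.00705, edgeR), and the call against WT was lost in 13 of 21 alternatives. Srsf1, Srsf3, Srsf4, Srsf6 and Srsf7 passed against controls, with log2 fold changes from -0.42 (Srsf3) to -0.29 (Srsf4); the same 5 had -0.31 to -0.18 against WT and did not pass. The calls of Srsf6 and Srsf4 were lost in 12 and 9 of 21 alternatives, those of Srsf1, Srsf7 and Srsf3 in 4, 3 and 2.

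Of the 4 SR-related proteins 1 fell against WT, 2 fell against controls and 0 rose (all genes: 11.8% and 14.5% lower, 11.2% and 16.1% higher). Those that fell were Srrm1 and Srrm2, both found in nuclear speckles. Srrm1 had 49.4 and 55.0 CPM in METTL3 KO, against 69.8 and 72.1 CPM in WT and 69.7 to 81.8 CPM in controls. It fell by 0.44 ± 0.13 and 0.55 ± 0.11 on the log2 scale (SE; adjusted p = 0.0205 and 0.00135, edgeR). Srrm2, the member of this role with the highest CPM, had 193.6 and 210.6 CPM in METTL3 KO, against 248.0 and 264.9 CPM in WT and 256.2 to 307.5 CPM in controls. It passed against controls (log2 fold change -0.46 ± 0.11 SE, adjusted p = 0.00559, edgeR) and not against WT. The call of Srrm1 against WT was lost in 6 of 21 alternatives. Rsrc1 and Rbm39, a U2AF-related protein, did not pass in either.

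Of the 14 hnRNPs 4 fell against WT, 5 fell against controls and 0 rose (all genes: 11.8% and 14.5% lower, 11.2% and 16.1% higher). Ptbp1 stood at 90.8 and 93.9 CPM in METTL3 KO libraries, against 166.1 and 156.5 CPM in WT and 119.9 to 166.7 CPM in controls. No other library was as low (log2 fold changes -0.80 ± 0.14 and -0.66 ± 0.12 SE, adjusted p = 0.000742 and 0.000608, edgeR). Its paralog Ptbp2, whose level is known to rise when PTBP1 is lost because PTBP1 represses an exon of it, had 38.7 and 43.7 CPM in METTL3 KO, against 31.0 and 44.6 CPM in WT and 38.1 to 67.1 CPM in controls, and did not pass by gene body. Hnrnpl, a repressor and activator that binds CA repeats, had 87.4 and 90.1 CPM in METTL3 KO, against 149.7 and 138.3 CPM in WT and 113.4 to 138.1 CPM in controls (-0.70 ± 0.13 and -0.55 ± 0.12 SE, adjusted p = 0.00152 and 0.00171, edgeR). Hnrnpf and Hnrnpk also fell in both, by 0.36 to 0.40 on the log2 scale, and Hnrnpu, a nuclear scaffold protein, fell against controls alone (-0.49 ± 0.13 SE, adjusted p = 0.00745, edgeR). Hnrnpf and Hnrnpk each lost the call against WT in some of the 21 alternatives (6 and 14 of them), and Ptbp1 and Hnrnpl in 0 of 21 in either comparison.

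Tissue-biased regulators moved in both directions: of 10, 2 rose and 2 fell against WT, and 2 rose and 4 fell against controls. Among all genes 11.2% were higher and 11.8% lower against WT, and 16.1% higher and 14.5% lower against controls. Mbnl2, a muscleblind protein that represses embryonic exons, stood at 171.0 and 185.6 CPM in METTL3 KO, against 101.9 and 105.8 CPM in WT and 91.8 to 151.9 CPM in controls. It rose in both comparisons (0.78 ± 0.19 and 0.47 ± 0.16 SE, adjusted p = 0.00627 and 0.0277, edgeR). Rbfox2, which binds GCAUG beside alternative exons, had 379.0 and 393.4 CPM, against 246.4 and 294.6 CPM in WT and 233.0 to 334.2 CPM in controls, and rose in both (0.51 ± 0.16 and 0.40 ± 0.14 SE, adjusted p = 0.0292 and 0.0332, edgeR). On exon bins alone its change was 0.23 and 0.22 and did not pass (adjusted p = 0.172 and 0.104, edgeR). Its intron share of bin counts was 63.9% and 64.0% in METTL3 KO, against 51.9% and 58.7% in WT and 54.8% to 62.0% in controls. Against controls the calls of Mbnl2 and Rbfox2 were each lost in 5 of 21 alternatives, among them either METTL3 KO library left out.

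Khdrbs3, a STAR-family splicing regulator of neurexin exons, stood at 9.90 and 8.96 CPM in METTL3 KO, against 14.4 and 18.1 CPM in WT and 12.1 to 17.2 CPM in controls. Both METTL3 KO libraries were the lowest of all (-0.80 ± 0.17 and -0.64 ± 0.14 SE, adjusted p = 0.00262 and 0.00252, edgeR), and on exon bins the fall was -1.20 and -1.14. Khdrbs1, its paralog also called Sam68, passed against controls (-0.40 ± 0.10 SE, adjusted p = 0.00496, edgeR), with 62.9 and 62.3 CPM in METTL3 KO and 77.8 to 88.2 CPM in controls. Qk, a STAR-family regulator known from glia, also passed against controls, with 111.5 CPM in each METTL3 KO library and 134.0 to 191.2 CPM in controls (-0.50 ± 0.18 SE, adjusted p = 0.0426, edgeR), a call lost in 7 of 21 alternatives. WT stood at 86.4 and 136.7 CPM and overlapped METTL3 KO.

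Celf2, which binds GU-rich sites, differed between gene-body and exon-bin counts. By gene body it had 159.2 and 169.3 CPM in METTL3 KO, against 131.0 and 176.3 CPM in WT and 106.7 to 275.8 CPM in controls, and did not pass. By exon bins it had 63.1 and 62.7 CPM in METTL3 KO, against 78.4 and 99.1 CPM in WT. Control e1 had 142.9 and 149.9 CPM by exon bins, and control e4 61.1 and 76.4 CPM. The exon-bin counts fell in both comparisons (-0.50 ± 0.15 and -0.67 ± 0.13 SE, adjusted p = 0.0247 and 0.000743, edgeR). Both e1 libraries were above METTL3 KO, while the e4 libraries lay on either side of it. Introns held 69.2% and 71.0% of the bin counts of Celf2 in METTL3 KO, against 53.2% and 55.2% in WT and 46.3% to 65.6% in controls.

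Elavl2 had 0 counts in both METTL3 KO libraries, against 6 and 14 counts in WT, 18 to 52 counts in controls, 15 to 43 in RBM45 KO and 24 to 41 in rescue libraries. Every library outside METTL3 KO had counts. With a limit of 3 counts over the METTL3 KO group, its level was at least 9.94-fold lower than in WT (1.18 CPM over the group) and at least 19.1-fold lower than in controls (2.27 CPM), and it passed in both comparisons (adjusted p = 0.000736 and 8.1e-06, edgeR). The limit covers counting error only. The gene lies at chr4:91250763-91400785, and a predicted gene overlaps it on the other strand.

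Of the 5 factors that recognise splice sites 4 fell against WT, 3 fell against controls and 0 rose. For all genes the shares were 11.8% and 14.5% lower, and 11.2% and 16.1% higher. U2af1, the subunit that reads the AG of the 3′ splice site, had 21.4 and 24.99 CPM in METTL3 KO, against 33.3 and 37.8 CPM in WT and 34.9 to 38.96 CPM in controls. U2af2, its partner that binds the polypyrimidine tract, had 46.8 and 49.6 CPM, against 76.7 and 70.8 CPM in WT and 53.0 to 81.5 CPM in controls. Both were lower in METTL3 KO than in any other library. U2af1 fell by 0.61 ± 0.12 and 0.66 ± 0.11 on the log2 scale (SE; adjusted p = 0.00232 and 0.000172, edgeR), and U2af2 by 0.61 ± 0.13 and 0.48 ± 0.12 (SE; adjusted p = 0.00366 and 0.00455, edgeR). Snrnp70, a U1 snRNP protein, passed against WT (-0.45 ± 0.13 SE, adjusted p = 0.0213, edgeR), with 53.2 and 49.9 CPM in METTL3 KO and 78.6 and 62.6 CPM in WT. Its control clones stood on either side, at 69.4 and 71.7 CPM in e1 and 44.8 and 46.5 CPM in e4. Sf3b1 passed against controls (-0.48 ± 0.12 SE, adjusted p = 0.00463, edgeR) with 102.2 and 108.1 CPM in METTL3 KO, while WT had 110.1 and 108.9 CPM. Sf1, the branch-point binding protein, passed against WT (-0.34 ± 0.12 SE, adjusted p = 0.0485, edgeR), a call lost in 14 of 21 alternatives.

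By gene-body counts, 20 members passed in neither comparison: Srsf5, Srsf10, Srsf11, Tra2a, Tra2b, Rsrc1, Rbm39, Hnrnpc, Hnrnpd, Hnrnph1, Hnrnpm, Hnrnpr, Hnrnpa0, Hnrnpa3, Ptbp2, Ptbp3, Mbnl1, Celf1, Celf2 and Elavl1. Their log2 fold changes ran from -0.45 ± 0.25 (SE; Mbnl1, over controls) to 0.46 ± 0.17 (SE; Hnrnpa3, over WT). On counts summed over exon bins, 4 of these 20 passed: Celf2 in both comparisons, Hnrnpa3, which was higher over WT (0.77 ± 0.22 SE, adjusted p = 0.0208, edgeR), and Ptbp2 and Hnrnpd, which were lower over controls (-0.45 ± 0.14 and -0.40 ± 0.13 SE, adjusted p = 0.0243 and 0.0311, edgeR). The exon sums called 2 members higher and 8 lower over WT, where 7.88% of 15031 genes were higher and 10% lower. Over controls they called 0 members higher and 19 lower, where 14.3% of genes were higher and 13.1% lower.

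Few bins of members passed in METTL3 KO. Of 1133 member bins (263 introns) from 43 members, 3 passed against WT and 8 against controls, and each of these was higher relative to the rest of its gene. Over all tested member bins the median relative log2 change was 0.19 against WT and 0.15 against controls for introns, and -0.06 and -0.04 for exons. Over all genes 0.147% of 127232 bins were called against WT and 0.196% against controls. Most of those were introns that rose: 162 introns rose and 3 fell against WT, and 182 rose and 6 fell against controls, of 24625 introns. The members' introns together held 25.2% of their bin counts in METTL3 KO (24.9% and 25.6%), 23.0% in rescue (21.4% to 26.4%), 18.2% in RBM45 KO (17.2% to 19.2%), 20.1% in controls (16.8% to 23.0%) and 18.6% in WT (17.9% and 19.3%). This share moved with the bin results, and its part in them was not tested. Against WT the count of 3 fell to 0 without either METTL3 KO or either WT library and to 1 without either ko2-3 or either m3 library, and stood at 8 without either e4 library. Against controls the count of 8 was 2 and 0 without the first and second METTL3 KO library, 5 without either ko2-3 library, 4 without the first e1 library, and 3 and 17 without the first and second e4 library.

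Srsf5, an SR protein whose gene is known for retained introns, had 2 overlapping bins that passed against controls. Its 1229-base intron at chr12:80947866-80949094 held 25.9% and 33.3% of Srsf5 gene fragments in METTL3 KO, against 13.5% to 15.6% in controls and 20.98% and 13.96% in WT. Both METTL3 KO libraries were above all 4 controls and both WT libraries. The relative log2 change was 0.73 ± 0.15 (SE, adjusted p = 0.00407, diffSpliceDGE) over controls and 0.54 ± 0.19 over WT, which did not pass (adjusted p = 0.32). The rescue clones were also high, at 26.1% and 25.8% in m2 and 27.8% and 26.0% in m3, against 16% to 19.6% in RBM45 KO. Their relative change did not pass over controls (0.59 ± 0.12 SE, adjusted p = 1, diffSpliceDGE) or over RBM45 KO (0.33 ± 0.12 SE, adjusted p = 1). The exon bin inside the intron (chr12:80948505-80949094), annotated in 3 retained-intron transcripts, held 10.3% and 19.7% in METTL3 KO and 5.75% to 9.92% in controls (0.71 ± 0.17 SE, adjusted p = 0.0359, diffSpliceDGE). The call of the intron was lost in 1 of 19 alternatives and that of the exon bin in 5 of 20; without the second METTL3 KO library the change of the exon bin was 0.28. The last 100 bases of this intron (chr12:80948995-80949094, plus strand, GENCODE M21 transcript letters) are shown because this intron gave the strongest call of an SR gene; the capitals mark the AG of its 3′ splice site.
Srsf5: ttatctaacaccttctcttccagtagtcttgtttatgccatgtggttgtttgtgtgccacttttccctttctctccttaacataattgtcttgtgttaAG

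Srsf2 also passed in an intron. The bin at chr11:116850962-116852020 held 9.15% and 8.29% of Srsf2 fragments in METTL3 KO, against 3.81% to 6.62% in controls and 5.20% and 4.38% in WT (relative log2 change over controls 0.59 ± 0.13 SE, adjusted p = 0.0394, diffSpliceDGE). The call was lost in 6 of 19 alternatives. Rescue libraries had 6.52% to 9.96%, and RBM45 KO libraries 4.23% to 7.37%. Mfsd11 and Mettl23 overlap Srsf2 on the other strand, and because the library kit keeps no strand, their reads cannot be told apart from those of Srsf2.

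Hnrnpd, also known as AUF1, passed in an intron and at its 3′ end. The intron at chr5:99967388-99976533 held 22.2% and 22.9% of its fragments in METTL3 KO, against 11.6% to 18.8% in controls and 10.1% and 16.3% in WT (0.53 ± 0.13 SE over controls, adjusted p = 0.0347, diffSpliceDGE). The bin at chr5:99955935-99960597, an untranslated end of transcript Hnrnpd-211, held 12.3% and 11.9%, against 4.33% to 8.43% in controls and 5.99% and 6.21% in WT (0.67 ± 0.14 SE over controls, adjusted p = 0.00903, diffSpliceDGE). METTL3 KO lay above every control and WT library in both bins. Rescue libraries held 16.5% to 22.3% in the intron, which overlapped METTL3 KO, and 7.14% to 8.80% in the 3′ bin. The call of the intron was lost in 6 of 19 alternatives and that of the 3′ bin in 4 of 20. The predicted gene Gm17092 overlaps Hnrnpd on the other strand. Hnrnpc, which binds runs of U, passed over WT in the intron at chr14:52084392-52098014, with 15.7% and 19.1% in METTL3 KO and 11.3% and 8.92% in WT (0.65 ± 0.15 SE, adjusted p = 0.0462, diffSpliceDGE), while controls reached 15.9%. Rescue libraries reached 17.1% in this Hnrnpc intron. The call was lost in 10 of 19 alternatives. Hnrnpu passed over WT in its downstream bin (chr1:178321108-178323073), found in the noncoding transcript Hnrnpu-205: 4.72% and 5.96% in METTL3 KO, against 2.48% and 2.88% in WT (0.71 ± 0.17 SE, adjusted p = 0.0399, diffSpliceDGE). In the controls it held 4.65% and 5.25% in e1 and 2.80% and 3.45% in e4, so that METTL3 KO overlapped e1. The call was lost in 9 of 20 alternatives, and Cox20 overlaps Hnrnpu on the other strand.

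Celf2 had 2 introns that passed against controls. The one at chr2:6884852-6962378 held 14.7% and 16.1% of Celf2 fragments in METTL3 KO, against 5.84% to 10.4% in controls and 7.14% and 7.88% in WT. It passed in both comparisons (0.69 ± 0.14 SE over controls, adjusted p = 0.00253; 0.79 ± 0.17 SE over WT, adjusted p = 0.0147, diffSpliceDGE). The neighbouring intron at chr2:6962415-7081106 held 15.8% and 15.4% in METTL3 KO, against 6.39% to 12.1% in controls (0.66 ± 0.14 SE, adjusted p = 0.00511, diffSpliceDGE). Rbfox2 passed in an intron at chr15:77102940-77105576, with 2.82% and 3.08% in METTL3 KO and 1.56% to 2.02% in controls (0.57 ± 0.13 SE, adjusted p = 0.0212, diffSpliceDGE). The call in Rbfox2 was lost in 5 of 19 alternatives, those of the Celf2 introns over controls in 2 of 19 each, and that over WT in 4 of 19. In these introns the rescue libraries did not rise with METTL3 KO: the first Celf2 intron held 6.68% to 8.21% and the Rbfox2 intron 1.37% to 1.67%. Several genes lie within Celf2 and Rbfox2 on either strand.

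**Figure D4:**
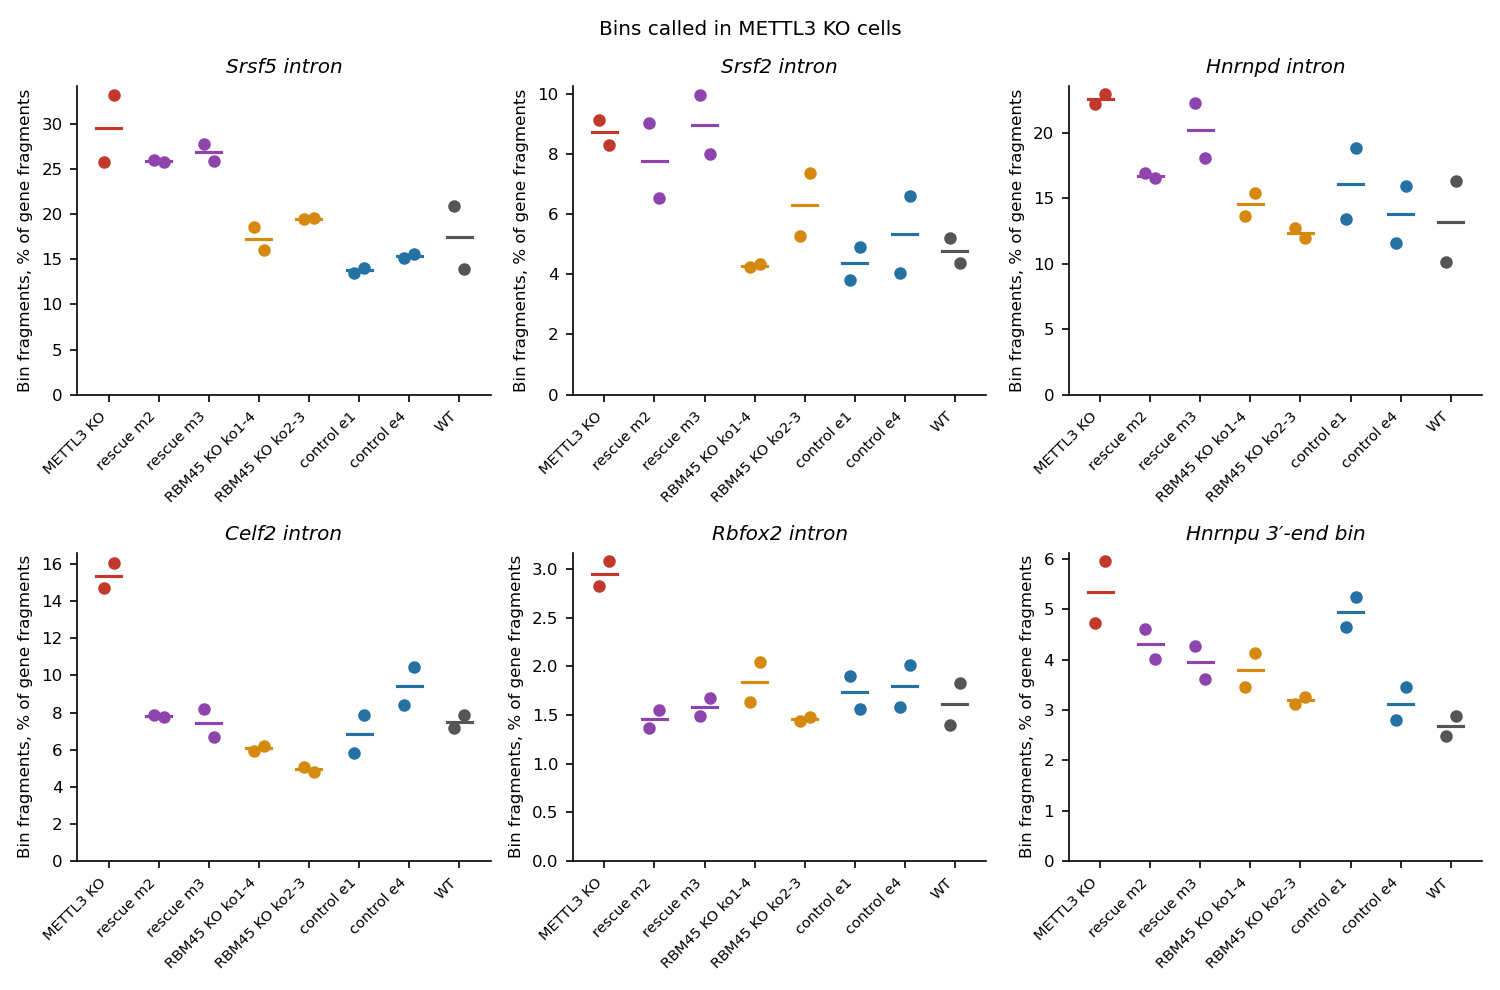
Fragments in 6 called bins as a percent of the gene's fragments, 2 libraries (points) and their mean (line) per group. METTL3 KO is high in all 6. The rescue clones are high too for the Srsf5 (25.8% to 27.8%) and Srsf2 introns, but not for the Celf2 and Rbfox2 introns. In the Hnrnpd intron rescue m3 reaches METTL3 KO (22.3%).

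No poison bin passed in METTL3 KO. Of 19 tested, 0 passed against WT and 0 against controls, with 4 at an unadjusted p under 0.05 in each and medians of 0.12 and 0.08 for the relative log2 change. Tra2b came closest: its poison bin (chr16:22258986-22259261) held 4.24% and 3.32% of Tra2b exon counts in METTL3 KO, against 1.08% to 2.82% in controls and 2.90% and 2.60% in WT. METTL3 KO was above every other library, and the change over controls was 0.63 ± 0.20 (SE), with an adjusted p of 0.226 (diffSpliceDGE). The intron share of Tra2b bin counts averaged 28.5% in METTL3 KO, 22.8% in controls and 23.3% in WT. Its part in this poison bin was not tested. The 4 Hnrnpu poison bins had relative changes of 0.84 to 1.104 over WT, on 6 to 21 counts per METTL3 KO library and 2 to 6 per WT library, and adjusted p of 0.465 to 0.625 (diffSpliceDGE).

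The other genes of the splicing pathway, from lists set by name, gave the following counts in METTL3 KO, where 11.2% of all genes were higher and 11.8% lower against WT, and 16.1% higher and 14.5% lower against controls. Of 13 tested other SR and hnRNP proteins 5 fell against WT and 7 against controls, and 0 rose. The poly(C)-binding protein Pcbp2 fell in both (-0.61 ± 0.13 and -0.71 ± 0.11 SE), Hnrnpul1 fell against WT (-0.64 ± 0.11 SE) and Raly against controls (-0.46 ± 0.11 SE). Of 31 genes of the snRNP and spliceosome core 15 fell against WT and 11 against controls, and 0 rose. Snrnp40 (-0.81 ± 0.15 SE) and Snrpd2 (-0.86 ± 0.17 SE) led against WT, and Snrnp200, the U5 helicase (-0.63 ± 0.11 SE), and Sf3a3 (-0.70 ± 0.12 SE) against controls.

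The same background shares (11.2% higher and 11.8% lower against WT, 16.1% and 14.5% against controls) apply to the smaller lists. Of 8 tested kinases of SR proteins 3 rose and 0 fell against WT, and 3 rose and 1 fell against controls. Clk1 and Clk4 rose against WT (0.65 ± 0.15 and 0.59 ± 0.19 SE), and against controls Srpk2 rose (0.59 ± 0.13 SE) while Srpk1 fell (-0.40 ± 0.10 SE). Of 14 genes of nonsense-mediated decay and the exon junction 5 fell and 0 rose against WT, and 6 fell and 1 rose against controls; Smg5 (-0.90 ± 0.14 and -0.66 ± 0.12 SE) and Magoh (-0.95 ± 0.19 and -0.76 ± 0.16 SE) fell in both. Of 13 tested tissue-restricted regulators 1 rose and 1 fell against WT (Celf5 1.92 ± 0.51, Rbm24 -1.63 ± 0.54 SE), and 4 rose and 2 fell against controls, led by Rbm20 (3.82 ± 0.44 SE) and Celf5 (3.05 ± 0.43 SE). Rbm20 averaged 4.51 CPM in METTL3 KO, against 2.86 CPM in WT, 0.109 CPM in control e1 and 0.792 CPM in control e4. It was lower in controls than in WT (-3.15 ± 0.50 SE, adjusted p = 0.000616, edgeR). Celf5 averaged 1.40 CPM in METTL3 KO, against 0.344 CPM in WT, 0.0834 CPM in e1 and 0.285 CPM in e4. In the 3 RBM45 comparisons 0 genes of any of the 5 lists passed.

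Clones of one genotype differed from each other in several members, which sets the spread against which the RBM45 comparisons are read. In control e1 over e4 5 members were called, 4 higher and 1 lower, where 19.6% of 16223 genes were called. In RBM45 KO ko1-4 over ko2-3 1 was higher and 1 lower, where 14.1% of genes were called. In rescue m2 over m3 0 were called, where 2.29% of genes were; the smallest p belonged to Khdrbs3 (0.47 ± 0.15 SE, adjusted p = 0.126, edgeR), Hnrnpa0 and Mbnl1, which did not pass. At an unadjusted p under 0.05, 1 member stood out in that pair, and DESeq2 called 0 members. Bins of members gave 0 calls in all 3 comparisons, where 0.0346%, 0.00786% and 0.00157% of bins were called. Without either e1 library the count of 5 fell to 3. Without the second ko1-4 library or either ko2-3 library the count of 2 fell to 1.

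Celf1, a paralog of Celf2 that also promotes mRNA decay at GU-rich elements, took 2 levels among the control, RBM45 KO and rescue clones. It stood at 43.1 and 52.3 CPM in control e1 and 44.6 and 54.4 CPM in RBM45 KO ko1-4, against 86.1 and 94.8 CPM in control e4 and 96.9 and 96.7 CPM in ko2-3. Rescue libraries had 100.6 to 102.0 CPM, METTL3 KO 72.0 and 80.0 CPM, and WT 60.2 and 62.4 CPM. The libraries of e1 and ko1-4 were below those of all other groups. The log2 fold change was -0.92 ± 0.13 (SE, adjusted p = 8.1e-05, edgeR) in e1 over e4 and -0.96 ± 0.13 (SE, adjusted p = 6.6e-05, edgeR) in ko1-4 over ko2-3, and it passed in all 21 alternatives of each.

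The genes around Celf1 (chr2:90940382-91019497) moved with it. Across all 16223 tested genes 1559 were called higher and 1616 lower in e1 over e4. In ko1-4 over ko2-3 the counts over all genes were 1241 higher and 1053 lower. Of 28 tested genes within 1 Mb that do not overlap it, 26 were called lower in e1 than in e4, with a median log2 fold change of -0.93, and 0 were called higher. In ko1-4 over ko2-3 22 of the 28 were called lower, with a median of -1.07, and 0 were called higher. Snrnp70 and U2af2, both on chromosome 7, were higher in e1 than in e4 (0.63 ± 0.13 and 0.44 ± 0.13 SE, adjusted p = 0.00255 and 0.0241, edgeR). Of 78 tested neighbours of Snrnp70 23 were called higher and 0 lower (median 0.48), and of 34 neighbours of U2af2 13 were called higher and 0 lower (median 0.61). For Celf2 (0.74 ± 0.21 SE, adjusted p = 0.0175, edgeR) and Hnrnpa0 (0.40 ± 0.12 SE, adjusted p = 0.025, edgeR), also higher in e1, 0 of 12 and 0 of 11 neighbours were called. Sf3b1 was higher in ko1-4 than in ko2-3 (0.49 ± 0.13 SE, adjusted p = 0.0158, edgeR). Of its 20 neighbours 3 were called higher and 1 lower, where 14.1% of all genes were called in that comparison.

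**Figure D5:**
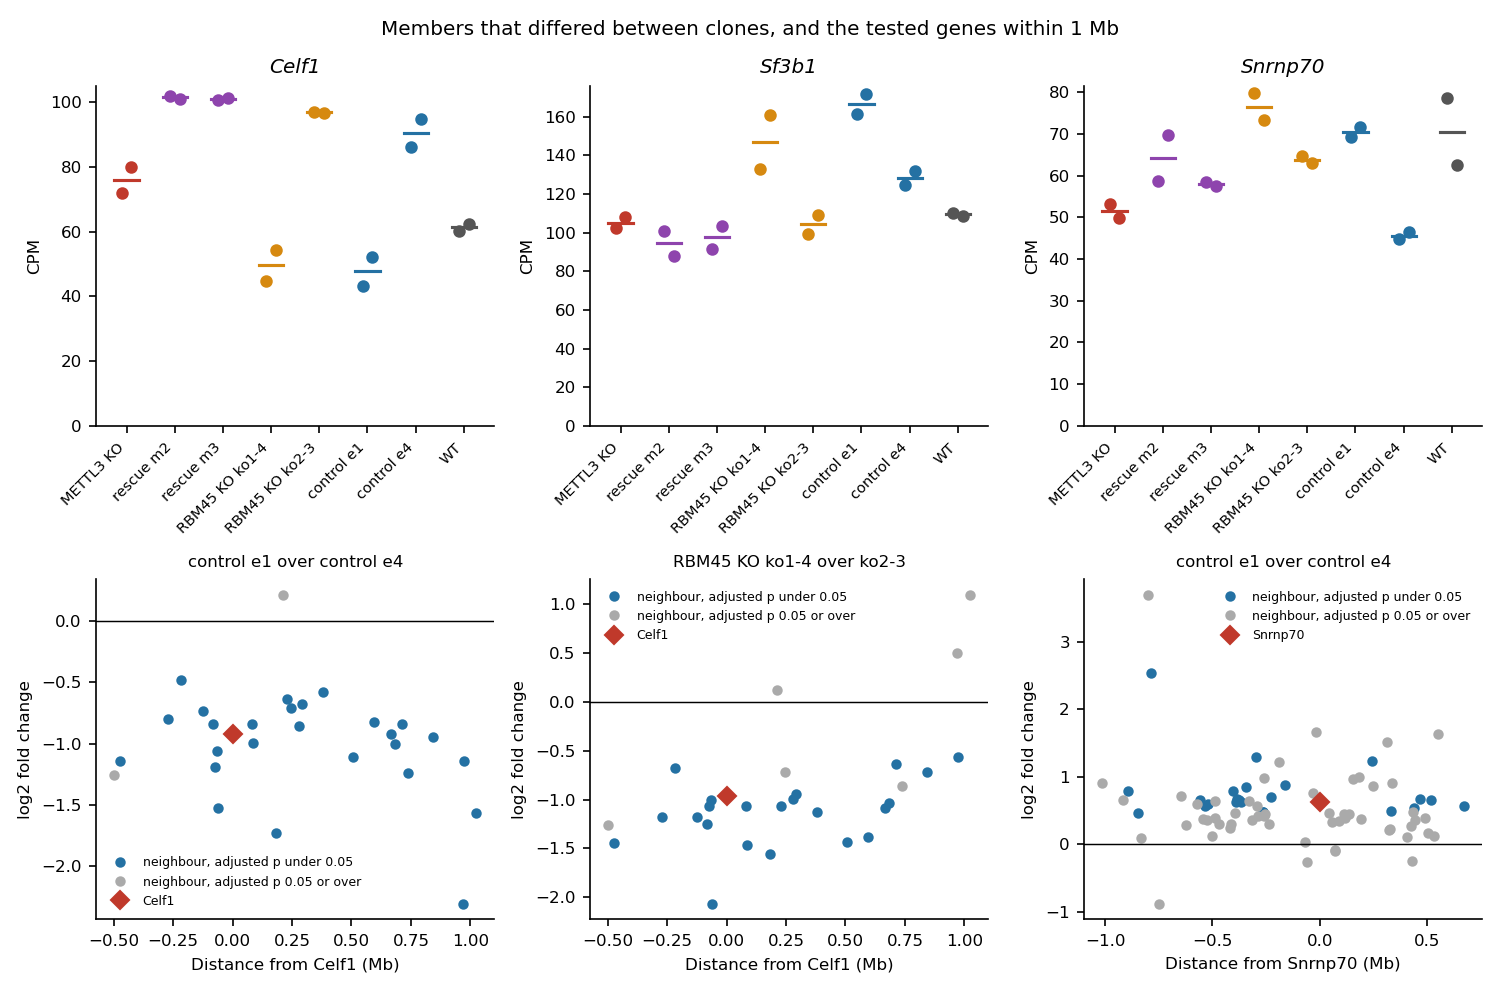
Top: Celf1, Sf3b1 and Snrnp70 in CPM, 2 libraries (points) and their mean (line) per group. Bottom: log2 fold change of each tested gene within 1 Mb against its distance from the member (red diamond), in 1 comparison of 2 clones each; nearly all neighbours of Celf1 lie below 0 beside it.

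Genes within 1 Mb were also counted around members that fell in METTL3 KO, and 9 of these members are given here, chosen after their counts were seen. Of all genes 11.2% were higher and 11.8% lower against WT, and 16.1% were higher and 14.5% lower against controls. Around Ptbp1 7 of 68 neighbours were called higher and 7 lower against WT, and 14 higher and 4 lower against controls. Around U2af1 3 of 20 were called higher and 2 lower against WT, and 3 higher and 6 lower against controls. Around Hnrnpl 1 of 49 was called higher and 14 lower against WT, but 10 higher and 4 lower against controls. Around Srsf2 8 of 43 were called higher and 3 lower against WT, and 11 higher and 2 lower against controls. Around Srrm1 1 of 36 was called higher and 13 lower against WT, and 3 higher and 13 lower against controls. Around Srrm2 0 of 53 were called higher and 20 lower against controls, and around Khdrbs1 3 of 38 were called higher and 13 lower. Around Snrnp70 0 of 78 were called higher and 18 lower against WT. Elavl2 had 1 tested neighbour, which did not pass in either.

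Control clones over WT, which set Cas9-treated clones beside the wild-type line, called 2 members, where 8.99% of 16223 genes were called. Srsf9 was lower (-0.44 ± 0.12 SE, adjusted p = 0.0306, edgeR), at 21.4 and 19.4 CPM in e1 and 17.99 and 16.4 CPM in e4, against 24.5 and 26.2 CPM in WT. Sf3b1 was higher (0.42 ± 0.12 SE, adjusted p = 0.0313, edgeR), at 124.8 to 171.8 CPM in controls, against 110.1 and 108.9 CPM in WT. For both the groups did not overlap. Qk had the next smallest p and did not pass (0.49 ± 0.18 SE, adjusted p = 0.0981, edgeR). Of member bins 0 passed, where 0.00157% of bins were called. The count of 2 fell to 0 without the first WT library, the second e1 library or the second e4 library and to 1 without the second METTL3 KO library, and rose to 5 without the second WT library and 8 without the first e4 library.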

How the data were processed

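The authors deposited raw fragment counts per gene body, exon bin and intron bin, made with featureCounts 1.6.3 on flattened annotations, per the file headers; HISAT2 (version 2.1.0) and mm10 stand in the submitters' processing notes. The kit keeps no strand, per the labels' protocols, yet only same-strand fragments were counted, per the file headers, so 22 members with a gene on the other strand cannot be told apart from it. A fragment could count in several bins, and reads shared with near-identical copies were not counted. Control columns were assigned by elimination, as all other columns carry another group's name. From the deposited counts, edgeR 4.0.16 (quasi-likelihood, TMM, filterByExpr; R 4.3.3) tested the RBM45 comparisons on 6 clone sums (16867 genes) and the others on 16 libraries (16223 genes). diffSpliceDGE took bins averaging 10 counts or more and tested each against the rest of its gene. Elavl2, with few counts, had none to test. Neither had the intronless Hnrnpa0, though its exon bins were well counted (49.4 to 78.6 CPM). The introns of Hnrnpa3 lay in an unmatched row. Alternatives were DESeq2 1.42.0, its size factors, other filters, sums over exon bins in place of gene bodies, left-out libraries and a replicate block. The tests were also run on counts drawn from the fitted levels and spread, with known changes added. Those counts held no shift in intron share or between replicate numbers, so they cannot show how the tests behave under either. The members and lists were chosen with earlier results of these data known. Called members are named, the 10 with the smallest p in full; where fewer than 3 passed, the 3 with the smallest p are given; bins likewise, for up to 8 members.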

Additional observations from a re-analysis of the deposited data

Results flagged for a closer look

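In 2 of 135 groups of 4 libraries (a member in the libraries of a genotype with 2 clones), 1 library stood far from the other 3; chance gives about 1 in 20 such groups. Srsf9 was at 18.1 CPM in the second ko2-3 library, against 21.6 to 22.2 CPM in the other 3 RBM45 KO libraries. Snrnp70 was at 69.9 CPM in the second m2 library, against 57.5 to 58.9 CPM in the other 3 rescue libraries.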

How the results depend on the processing

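Counts below are members called. The replicate numbers were not treated as pairs: each group has 2, and the correlation of same-numbered deviations did not pass 0.1 in every pair of groups. It was positive in all 15 pairs without a rescue clone (0.06 to 0.49, 13 over 0.1) and negative in all 13 pairs with one (-0.31 to -0.005). The library numbered 2 had the higher share of member counts in 6 of 8 groups, all but the rescue clones. It had the higher intron share in 7 of 8 groups, all but rescue m3. With a replicate block on 12 libraries, rescue over control gave 1 member and 1 bin, rescue over RBM45 KO 3 bins and RBM45 KO over control 1 bin, where each main count was 0. The block left 15 and 3 (METTL3 KO over WT, members and bins) and gave 23 and 9 over controls. With the 12 libraries as units and no block, rescue over control called 2 members (Ptbp3 and Sf3b1), where libraries of a clone count as independent. Control over WT called 1 with DESeq2 and 4 with no count filter, against 2. METTL3 KO over WT called 9 with no count filter and 10 on exon sums, against 15; over controls exon sums called 19, against 22. On exon sums m2 over m3 called 1 (Khdrbs3), against 0. Sf3b1 in all 4 rescue and control pairs became 0 on exon sums and 0 with no count filter, against 1. With exon bins alone, member bins called were 2 (METTL3 KO over controls, against 8), 1 (over WT, against 3) and 1 (e1 over e4, against 0). With a mean of at least 30 counts, METTL3 KO over WT called 7 bins. Leaving out 1 library or clone at a time gave 0 to 8 for control over WT, 6 to 17 for METTL3 KO over WT (bins 0 to 8), 6 to 23 over controls (bins 0 to 17), 0 to 3 bins for rescue over RBM45 KO, 0 to 1 for the pair count of rescue and control, 1 to 2 for ko1-4 over ko2-3 and 3 to 6 for e1 over e4. The cause of each difference was not tested. Over all alternatives 0 values changed sign; the named results kept direction and side of the threshold in 1181 cases, dropped below it in 202 and rose above it in 7. DESeq2 size factors, in place of TMM, moved the median of all genes by less than 0.1 on the log2 scale. Of 64 poison bins 19 averaged 10 counts or more, and that of Tra2a held 5 to 30 counts per library.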
